A study of Homo sapiens with 8 samples.

Results

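Interferon signalling and response genes were followed in SKBR3 cells with and without knockdown of the transcription factor FOXA1. The set was a list of 58 symbols of interferon receptors, kinases, transcription factors, nucleic acid sensors and interferon-stimulated genes. Members were the rows of the count table with one of these symbols: 57 of the symbols were found in 58 of 30434 rows. The symbol not found, TMEM173, is the older name of STING1, which was found, and IFNAR2 had 2 rows. Enough counts for a test were present in 47 of the 58 rows, and the other 11 are given by their counts.

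SKBR3 is a human breast cancer cell line with amplified ERBB2 (HER2). RNA sequencing covered 4 libraries of control cells, labelled WT, and 4 libraries of the same line after FOXA1 knockdown. The knockdown cells were a stable line made with lentiviruses carrying short hairpin RNAs against FOXA1, and all cells grew in the same serum-containing medium. No interferon or other agent is named in the labels. The labels do not say whether control cells received a virus or a control hairpin, so exposure to virus and hairpin RNA cannot be told apart from loss of FOXA1 itself. They also do not say whether the stable line came from 1 clone, or whether replicates were separate cultures. The p-values therefore measure the spread between these libraries, which may be technical.

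Interferons are secreted proteins that act through cell surface receptors. The type I receptor is a pair of IFNAR1 and IFNAR2 and the type II receptor is built from IFNGR1 and IFNGR2. The bound receptors work through the Janus kinases JAK1, JAK2 and TYK2, which phosphorylate STAT proteins. STAT2 joins IRF9 in a complex that binds a promoter sequence called the interferon-stimulated response element and switches on antiviral genes. Cells make interferon when sensors such as IFIH1 (MDA5), DDX58 (RIG-I) or TLR3 meet viral RNA, or CGAS meets DNA in the cytosol, and adaptors such as MAVS and STING1 pass the signal to TBK1, IRF3 and IRF7. Many target genes also have a basal level without added interferon.

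To show the promoters behind the target genes described below, the 200 bases before the start of 6 of them are printed from RefSeq (GRCh38.p14), 5′ to 3′ on the gene's strand. Capitals mark every match on either strand to GAAA, 2 bases of any kind and GAAA again, letters shared by interferon-stimulated response elements. HERC5 (chr4:88456919-88457118, plus strand), IFI6 (chr1:27672193-27672392, minus strand) and ISG15 (chr1:1013297-1013496, plus strand) are shown as targets that rose in knockdown. BST2 (chr19:17405631-17405830, minus strand) and ISG20 (chr15:88638816-88639015, plus strand) are shown as the largest falls among targets, and IFI44L (chr1:78620248-78620447, plus strand) as a target that stayed near 0. These 6 were chosen after their values were seen.
HERC5: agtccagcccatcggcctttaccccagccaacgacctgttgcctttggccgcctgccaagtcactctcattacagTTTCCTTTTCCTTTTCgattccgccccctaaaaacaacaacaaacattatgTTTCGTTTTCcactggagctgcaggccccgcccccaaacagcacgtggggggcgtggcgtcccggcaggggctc
IFI6: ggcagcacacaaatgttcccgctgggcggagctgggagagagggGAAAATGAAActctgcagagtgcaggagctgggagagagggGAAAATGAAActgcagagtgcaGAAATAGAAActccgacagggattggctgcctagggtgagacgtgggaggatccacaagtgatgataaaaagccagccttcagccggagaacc
ISG15: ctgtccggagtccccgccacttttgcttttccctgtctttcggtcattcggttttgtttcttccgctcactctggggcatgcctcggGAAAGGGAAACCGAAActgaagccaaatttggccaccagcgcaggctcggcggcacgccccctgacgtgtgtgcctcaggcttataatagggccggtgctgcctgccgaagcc
BST2: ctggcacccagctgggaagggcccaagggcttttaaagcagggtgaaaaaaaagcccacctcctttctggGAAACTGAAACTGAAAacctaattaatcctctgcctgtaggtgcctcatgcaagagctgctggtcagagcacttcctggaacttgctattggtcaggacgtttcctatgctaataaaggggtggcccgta
ISG20: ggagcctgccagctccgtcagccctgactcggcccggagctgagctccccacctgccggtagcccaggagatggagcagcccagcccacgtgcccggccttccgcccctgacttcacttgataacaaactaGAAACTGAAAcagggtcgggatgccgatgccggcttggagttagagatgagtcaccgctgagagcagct
IFI44L: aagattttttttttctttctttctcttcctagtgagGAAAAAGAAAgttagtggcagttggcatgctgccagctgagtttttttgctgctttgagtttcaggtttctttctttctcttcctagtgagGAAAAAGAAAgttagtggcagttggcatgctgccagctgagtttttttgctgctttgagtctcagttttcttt

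These letters were present in targets that rose, in targets that fell and in targets near 0. HERC5 and IFI6 held 3 matches each, ISG15, BST2 and IFI44L held 2 each, and ISG20 held 1. The matches in HERC5 and in ISG15 that lie side by side overlap one another, as do those in BST2. Among the 42 member symbols with a promoter window, which ran from 250 bases before to 50 after the start, 23 (54.8%) held the letters. Over all 27305 genes with a window the share was 4.38%. By role, the letters were in 21 of 29 targets, in 2 of 4 sensors and adaptors and in 0 of 9 receptors, kinases and factors. Of targets that rose, 12 of 16 held a match, as did 3 of 4 targets that fell and 5 of 7 targets with too few counts to test. A second motif, TTCNNNGAA, the letters of the gamma-activated site bound by STAT dimers, was in 10 of 42 member symbols (23.8%) and in 9.38% of all genes. Matches were sought on both strands and may overlap those of the first motif. TGTTTAC, letters bound by forkhead proteins such as FOXA1, was in 2 of 42 (4.76%), IFNAR1 and SAMD9L, against 4.19% of all genes. A match describes the letters of the window and is not evidence of binding. The 15 member symbols without a window were CGAS, DDX58, DHX58, GBP2, IFIT2, IFITM2, IFNAR2, IRF2, IRF3, IRF7, MX2, OAS2, OASL, STING1 and USP18.

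The libraries held between 19087878 and 23786684 counts. FOXA1, the targeted gene, went from 191.4 CPM ± 1.65 to 3.95 CPM ± 0.340 (counts scaled to 1e+06 per library; n = 4 per group, SD), or 2.06% of control. Spearman's rho was at least 0.995 between libraries of 1 group and at most 0.8783 across groups. The summed level of 5 breast epithelial markers (ERBB2, KRT8, KRT18, KRT19, EPCAM) ran from 16170 to 18040 CPM in control and from 10850 to 11720 CPM in knockdown. The 5 did not move together: ERBB2 (means of 7298 and 1338 CPM) and KRT19 (2642 and 722 CPM) were called lower by edgeR. KRT8 (4513 and 5612 CPM), KRT18 (2309 and 3452 CPM) and EPCAM (179.1 and 225.9 CPM) were called higher. Leukocyte markers summed to at most 1.18 CPM in any library, with PTPRC at no more than 3 counts. Endothelial markers summed to 20.7 to 22.1 CPM in control and 19.8 to 22.4 CPM in knockdown, with CDH5 higher (16.1 and 20.1 CPM) and VWF lower (5.21 and 0.844 CPM). Fibroblast markers summed to 4.89 to 6.40 CPM in control and 8.59 to 8.79 CPM in knockdown, with COL3A1 higher (0.0222 and 4.31 CPM) and COL1A1 lower (5.38 and 4.32 CPM). COL1A2 had 1 to 3 counts in control and 0 to 2 in knockdown, and DCN at most 1 in any library. KDR was at 0 in every control library and had 7, 3, 3 and 0 counts in knockdown, and CD3E and LUM were not analysed here. Their part in the interferon results was not tested.

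Across the set, tested targets were mostly higher in knockdown, while the receptors and kinases that transmit interferon signals were lower or not called. The set was chosen with earlier results of these data known. Of 32 tested genes in a further list of targets, given below, 14 rose (43.8%) and 16 fell (50%). By edgeR's quasi-likelihood test at an adjusted p under 0.05, 40 of the 47 tested members were called, where 77.1% of all 16430 genes tested were called. Of these, 23 rose (48.9% of members tested, 39.4% of all genes) and 17 fell (36.2% of members, 37.7% of all genes). A change of at least 2-fold was called for 24 members (51.1%, against 28.3% of all genes), 17 higher (background 14.9%) and 7 lower (background 13.4%). The control and knockdown libraries did not overlap in CPM for 39 of the 47, against 72% of all genes. The median log2 fold change of the 47 was 0.30, beside 0.02 over all genes tested. It was 0.05 when all 58 rows were tested without a filter, 0.13 with a minimum mean of 50 counts and 0.18 without control replicate 3, so the median depends on which low genes and libraries enter. The filter required 0.442 CPM in 4 libraries. IFI16, IFIT2, IFIT3, IFITM1 and HERC5 met it only through knockdown and BST2 only through control, so these 6 had to differ to be tested.

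The calls were counted by role. Over all genes tested, 39.4% rose and 37.7% fell. Among receptors, Janus kinases, STAT and IRF factors, 2 of 14 tested rows rose (14.3%), 9 fell (64.3%) and 3 were not called. Among sensors and adaptors, 2 of 7 rose (28.6%), 3 fell (42.9%) and 2 were not called. Among targets, 19 of 26 rose (73.1%), 5 fell (19.2%) and 2 were not called. Of these rises, 15 were at least 2-fold, a rise called for 14.9% of all genes. Without the 6 targets that passed the filter through 1 group only, a tally added after seeing the data, 14 of 20 rose and 4 fell, with 10 rises of at least 2-fold and a median log2 fold change of 1.11. The median log2 fold changes over all tested rows were -0.44, -0.12 and 1.5 for the 3 roles in that order, and over the 41 members left without those 6 it was 0.11. No test compared the roles with each other or with all genes.

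**Figure D1:**
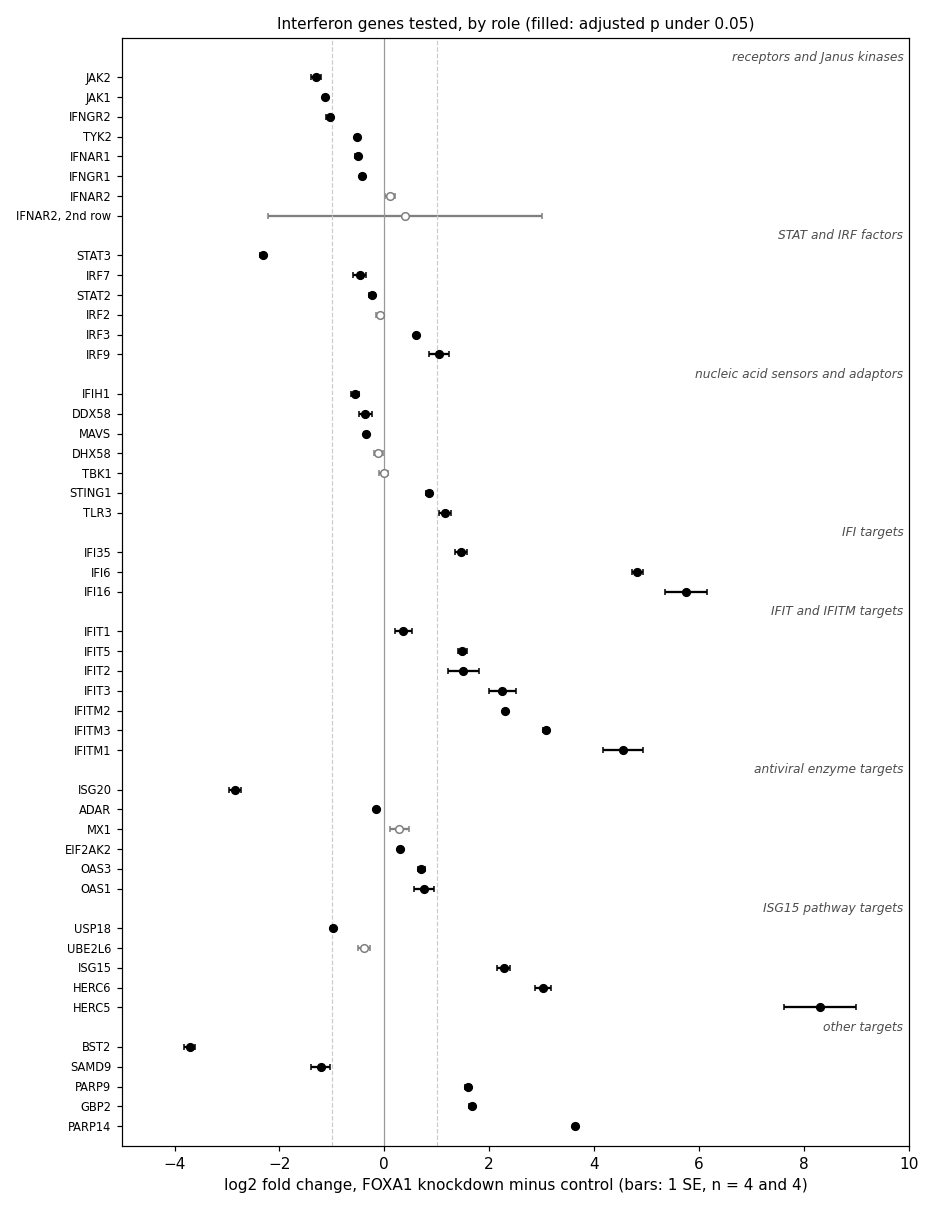
Log2 fold change (knockdown minus control) of the 47 tested rows, grouped by role, with bars of 1 SE (n = 4 and 4), filled points for an adjusted p under 0.05 and dashed lines at a 2-fold change. Targets reach from -3.71 (BST2) to 8.31 (HERC5), and all called receptors and kinases lie left of 0. The fitted values of HERC5 and IFI16 depend on the prior count, since their control libraries held at most 3 counts.

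The receptor chains and their kinases were lower throughout, apart from IFNAR2. JAK1 (chromosome 1), the kinase shared by type I and type II receptors, was at 157.2, 161.6, 148.3 and 160.9 CPM in control replicates 1 to 4 and at 71.7, 73.8, 68.7 and 72.8 CPM in knockdown replicates 1 to 4. Its log2 fold change was -1.13 (SE 0.0363, edgeR adjusted p 7.63e-19), which left 45.7% of the control level. All knockdown libraries of JAK1 lay below all controls. JAK2, the kinase of the IFNGR2 chain, was at 11.6, 12.6, 9.77 and 11.8 CPM in control and at 4.84, 4.50, 5.04 and 4.21 CPM in knockdown. It fell by 1.30 on the log2 scale (SE 0.0970, edgeR adjusted p 5.64e-12), with no overlap of groups. TYK2, the kinase bound to IFNAR1, fell less: it was at 61.9, 56.5, 61.9 and 60.7 CPM in control and at 41.5, 42.4, 40.8 and 42.4 CPM in knockdown (log2 change -0.53 with SE 0.0341, edgeR adjusted p 8.03e-11).

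IFNGR2 (chromosome 21), the signalling chain of the type II receptor, was at 7.77, 8.43, 8.73 and 7.88 CPM in control. It was at 4.41, 3.64, 3.87 and 4.02 CPM in knockdown, 48.6% of control, with a log2 fold change of -1.04 (SE 0.0703, edgeR adjusted p 5.88e-10). It shares 380 bp of exon with TMEM50B on the opposite strand, and the use of strand in counting is not given in the sources used here. The ligand-binding chain IFNGR1 fell from 37.8 CPM ± 2.47 to 28.2 CPM ± 0.535 and IFNAR1 from 71.0 CPM ± 3.98 to 49.98 CPM ± 1.58 (n = 4 per group, SD). IFNAR2 was not called, at 20.5 to 26.3 CPM in control and 24.1 to 27.9 CPM in knockdown (log2 change 0.11 with SE 0.1004, edgeR adjusted p 0.185). A further row named IFNAR2, which shares exons with both IFNAR2 and IL10RB, held 97, 0, 4 and 70 counts in control and 0, 103, 4 and 121 in knockdown. That row swung between replicates of both groups alike, and nothing is read from it.

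STAT3 had the largest fall among the transducers. It acts mainly downstream of cytokines such as interleukin-6 and also of interferons. STAT3 (chromosome 17) was at 494.1, 503.9, 510.8 and 484.7 CPM in control and at 94.7, 101.3, 96.6 and 106.4 CPM in knockdown. The knockdown libraries kept 20.02% of the control level (log2 change -2.32 with SE 0.0409, edgeR adjusted p 1.19e-25). STAT2, the partner of IRF9, fell from 42.1 CPM ± 2.36 to 35.9 CPM ± 1.51 (n = 4 per group, SD), a small change with groups that did not overlap.

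The interferon regulatory factors were divided. IRF9, the DNA-binding partner of STAT2, was at 2.10, 2.68, 2.09 and 3.27 CPM in control and at 4.88, 6.01, 4.27 and 5.78 CPM in knockdown. It rose by 1.04 on the log2 scale (SE 0.191, edgeR adjusted p 7.83e-07). IRF9 shares 1838 bp of exon with a same-strand gene, AL136295.5, which had more counts (a mean of 174.1 per library against 87.0) and a log2 fold change of 1.02, so the division of reads between them is uncertain. IRF3, which is activated by phosphorylation after sensing, was at 53.96, 51.7, 56.2 and 55.3 CPM in control and at 81.4, 81.7, 83.7 and 85.6 CPM in knockdown. Its log2 fold change was 0.61 (SE 0.0314, edgeR adjusted p 8.36e-13), and 0.28 with the median of its 50 nearest genes (0.34) subtracted. The overlapping opposite-strand gene BCL2L12 shares 734 bp with IRF3 and had nearly the same change, 0.63. IRF7, the amplifier of type I interferon production, was at 6.17, 5.58, 5.12 and 4.99 CPM in control and at 3.14, 4.17, 4.27 and 4.25 CPM in knockdown. It fell by 0.47 on the log2 scale (SE 0.128, edgeR adjusted p 0.00109), and with the median change of its 50 nearest genes subtracted the value was 0.11 with an adjusted p of 0.399. IRF2, often a repressor of interferon targets, was not called (14.9 CPM ± 1.12 and 14.1 CPM ± 1.01, SD, n = 4 each).

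**Figure D2:**
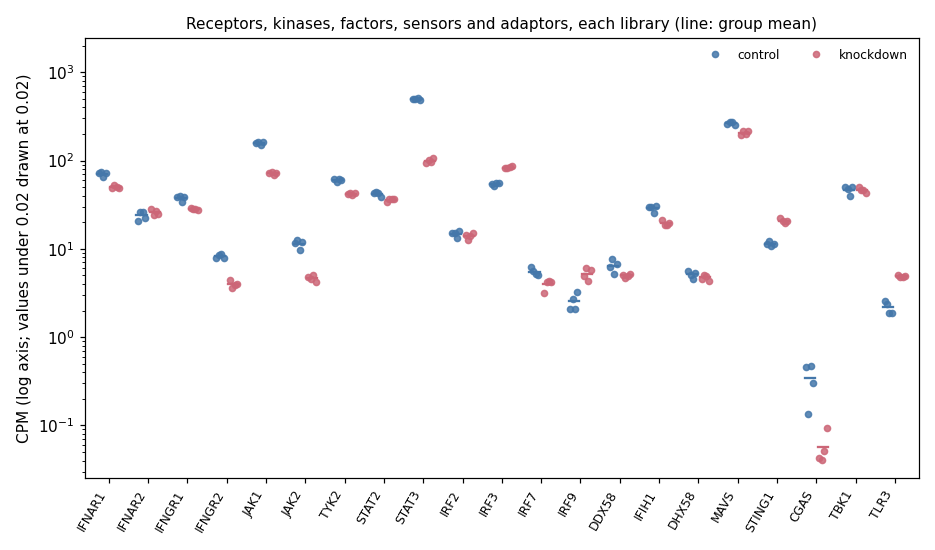
CPM (log axis, values under 0.02 drawn at 0.02) of the receptors, kinases, factors, sensors and adaptors in each library, with a line at each group mean. STAT3 drops from near 498 to near 99.8 CPM, while TBK1, IRF2 and DHX58 overlap between groups; CGAS lies under 1 CPM in all libraries. The second IFNAR2 row is not drawn.

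The RNA sensors IFIH1 and DDX58 were lower and DHX58 was not called, while the endosomal sensor TLR3 and the adaptor STING1 were higher. TLR3, which senses double-stranded RNA in endosomes, was at 2.56, 2.36, 1.897 and 1.894 CPM in control and at 5.05, 4.75, 4.83 and 4.90 CPM in knockdown. It rose by 1.16 on the log2 scale (SE 0.111, edgeR adjusted p 1.21e-08). STING1, the adaptor for the DNA sensor CGAS, was at 11.3, 12.4, 10.9 and 11.3 CPM in control and at 22.1, 20.7, 19.6 and 20.5 CPM in knockdown. Its log2 fold change was 0.86 (SE 0.0532, edgeR adjusted p 1.18e-11), and the median of its 50 nearest tested protein-coding genes on chromosome 5 was 0.52. CGAS itself had 10, 3, 10 and 7 counts in control and 1, 1, 1 and 2 in knockdown, and was not tested. All knockdown libraries of CGAS lay below all controls, with a count ratio of 0.165 (95% counting interval 0.0499 to 0.429, exact binomial).

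IFIH1, a sensor of long double-stranded RNA, was at 29.8, 29.7, 25.6 and 30.2 CPM in control and at 21.3, 18.6, 18.7 and 19.4 CPM in knockdown. It fell by 0.56 on the log2 scale (SE 0.0723, edgeR adjusted p 1e-08). DDX58, a sensor of RNA ends, fell by 0.36 (adjusted p of 0.00499 by edgeR), although 1 or more libraries of the groups overlapped (5.17 to 7.57 CPM and 4.71 to 5.22 CPM) and the value was 0.16 (adjusted p of 0.186) with the regional shift removed. MAVS, the mitochondrial adaptor of both sensors, was at 261.1, 272.8, 273.0 and 250.8 CPM in control and at 195.3, 215.5, 202.2 and 217.3 CPM in knockdown (log2 change -0.35 with SE 0.0471, edgeR adjusted p 1.08e-08). DHX58, a regulator of these sensors, and the kinase TBK1 were not called, with log2 fold changes of -0.11 (SE 0.0821) and -0.01 (SE 0.0883).

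IFITM2, IFITM3 and IFI6 had the highest levels per kilobase of exon among targets in knockdown, while ADAR was the highest in CPM in both groups. The IFITM proteins are small membrane proteins that hinder fusion of viruses with the cell. IFITM3 (chromosome 11) was at 25.8, 25.2, 28.2 and 24.8 CPM in control and at 211.5, 216.9, 217.6 and 233.2 CPM in knockdown. It rose 8.46-fold (log2 change 3.08 with SE 0.0512, edgeR adjusted p 1.76e-26). IFITM2 was at 48.2, 49.0, 49.6 and 45.7 CPM in control and at 235.5, 234.2, 231.3 and 250.7 CPM in knockdown, a 4.94-fold rise (log2 change 2.31 with SE 0.0371, edgeR adjusted p 3.62e-25). IFITM1 had 8, 16, 5 and 5 counts in control and 221, 208, 197 and 190 in knockdown (log2 change 4.55 with SE 0.381, edgeR adjusted p 1.36e-16). It met the filter's minimum only through knockdown and so had to differ to be tested. The IFITM genes are near copies of each other, and IFITM1 and IFITM2 share 351 bp of annotated exon on the same strand. How reads were divided among the 3 genes is therefore uncertain, above all for IFITM1, whose counts are few beside those of IFITM2.

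IFI6, a mitochondrial and endoplasmic reticulum protein induced by interferon, had 75, 94, 100 and 85 counts in control and 2754, 2830, 2232 and 2349 in knockdown. Its level went from 4.02 CPM ± 0.594 to 113.7 CPM ± 3.71 (n = 4 per group, SD), 28.3-fold higher (log2 change 4.82 with SE 0.108, edgeR adjusted p 3.71e-27). Per kilobase of exon, the members with the highest levels in control were ADAR (59.3 CPM per kb), STAT3 (56.6) and IFITM2 (31.2). In knockdown they were IFITM3 (163 CPM per kb), IFITM2 (154) and IFI6 (131), followed by ADAR (53.4). Exon lengths are those of all GENCODE 29 exons of a gene, so these levels are approximate.

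The summed level of all 36 targets went from 842.6 CPM ± 11.6 to 1404 CPM ± 24.4 (n = 4 per group, SD). IFITM2 and IFITM3 together went from 74.1 CPM ± 3.02 to 457.7 CPM ± 17.5 (n = 4 per group, SD), which is the larger part of that difference. Without these and without ADAR, the remaining targets summed to 185.2 to 200.9 CPM in control and 421.6 to 432.1 CPM in knockdown, with no overlap. Most targets stayed low in absolute terms: 11 of 36 averaged at least 10 CPM in knockdown and 7 did in control, while 12 and 16 averaged under 1 CPM.

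The other IFI genes were low. IFI35 was at 2.79, 2.36, 2.18 and 2.50 CPM in control and at 7.30, 6.34, 7.78 and 5.87 CPM in knockdown (log2 change 1.47 with SE 0.118, edgeR adjusted p 7.5e-11). IFI16, a sensor of DNA in the nucleus and cytosol, had 0, 0, 0 and 1 counts in control and 27, 17, 17 and 20 in knockdown. Its count ratio was 80.0 with a counting interval of 13.96 to 3200 (95%, exact binomial on summed counts), and edgeR's adjusted p was 1.77e-09. The interval is wide because a single control read sets the denominator. IFI16 met the filter's minimum only through knockdown and so had to differ to be tested. IFI27 was not tested, with 0 to 1 counts in control and 3 to 9 in knockdown. Its count ratio was 8.23 (95% counting interval 2.51 to 42.6, exact binomial). IFI44 and IFI44L, both strongly inducible genes in many cells, had at most 3 counts in any library.

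All 4 IFIT genes, of a family in which some proteins bind viral RNA ends, were higher, and 3 of them by more than 2-fold. Of these 3, IFIT2 and IFIT3 met the filter's minimum only through knockdown and so had to differ to be tested. IFIT3 had 5, 10, 4 and 7 counts in control and 34, 35, 28 and 30 in knockdown (log2 change 2.25 with SE 0.252, edgeR adjusted p 4.51e-08). IFIT5 rose from 4.75 CPM ± 0.514 to 13.3 CPM ± 0.622 and IFIT2 from 0.473 CPM ± 0.170 to 1.37 CPM ± 0.282 (n = 4 per group, SD). IFIT2, with a mean of 20.4 counts per library, shares 356 bp of exon with a same-strand gene, AL353751.1. AL353751.1 had a mean of 11.4 counts and a log2 fold change of -0.11. Opposite-strand LIPA, with a mean of 1152 counts, shares 65 bp with IFIT2, so the division of reads is uncertain. IFIT1 changed least: its groups overlapped (2.52 to 3.44 CPM and 2.91 to 4.41 CPM), and its log2 fold change of 0.36 had an adjusted p of 0.028 by edgeR. That call did not hold with DESeq2 (0.0734), with a replicate block (0.0534), with the regional shift removed (0.0957) or without any one of 5 libraries, control replicates 1, 2 and 3 and knockdown replicates 1 and 3 (0.052 to 0.118).

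In the ISG15 pathway group, ISG15, its ligase HERC5 and HERC6 were higher, the remover USP18 was lower and UBE2L6 was not called. ISG15, a ubiquitin-like protein attached to other proteins, had 44, 33, 43 and 40 counts in control and 204, 194, 176 and 212 in knockdown. It rose by 2.28 on the log2 scale (SE 0.122, edgeR adjusted p 5.98e-15). HERC5, the main ligase that attaches ISG15, had 3, 3, 1 and 0 counts in control and 653, 683, 505 and 578 in knockdown. Its count ratio was 341 with a counting interval of 165 to 850 (95%, exact binomial), and its adjusted p was 1.19e-23 by edgeR. HERC5 met the filter's minimum only through knockdown and so had to differ to be tested. HERC6, the neighbouring gene on chromosome 4, was at 2.74, 3.08, 2.04 and 3.23 CPM in control and at 23.6, 21.7, 22.5 and 23.4 CPM in knockdown. HERC6 rose 8.22-fold (log2 change 3.03 with SE 0.150, edgeR adjusted p 7.74e-20). USP18, the protease that takes ISG15 off proteins and dampens the type I receptor, went the other way. It was at 16.4, 15.6, 15.7 and 16.1 CPM in control and at 8.11, 8.10, 7.73 and 8.18 CPM in knockdown, and fell by 0.99 on the log2 scale (SE 0.0252, edgeR adjusted p 1.87e-12). UBE2L6, the conjugating enzyme of the pathway, was not called (log2 change -0.38 with SE 0.109, edgeR adjusted p 0.0713), although it was called without control replicate 1 (adjusted p of 0.0367). All knockdown libraries of UBE2L6 lay below all controls.

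Antiviral enzymes went in both directions, and ISG20 was the only one of the 6 tested to change by at least 2-fold. ISG20, an exonuclease that degrades RNA, was at 25.1, 22.7, 24.0 and 19.9 CPM in control and at 3.44, 3.15, 2.59 and 3.46 CPM in knockdown. It kept 13.8% of the control level (log2 change -2.85 with SE 0.120, edgeR adjusted p 3.74e-19). The OAS enzymes make a messenger that activates RNA decay. OAS3 rose from 16.5, 17.3, 17.2 and 17.1 CPM in control to 26.5, 30.3, 24.5 and 29.8 CPM in knockdown (log2 change 0.71 with SE 0.0736, edgeR adjusted p 2.97e-10). OAS1 had 19, 28, 16 and 27 counts in control and 41, 45, 36 and 32 in knockdown (log2 change 0.76 with SE 0.185, edgeR adjusted p 0.00175). OAS2 and OASL were not tested: OAS2 had 3 to 9 counts in control and 0 to 1 in knockdown, and OASL 4 to 11 and 1 to 6. The OASL groups overlapped and those of OAS2 did not, with a count ratio for OAS2 of 0.0823 (95% counting interval 0.00943 to 0.332, exact binomial).

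EIF2AK2 (PKR), a kinase that halts translation on double-stranded RNA, was at 95.4, 95.7, 86.2 and 91.3 CPM in control and at 111.8, 114.0, 113.0 and 114.6 CPM in knockdown. The rise was 0.30 on the log2 scale (SE 0.0360, edgeR adjusted p 1.83e-07). ADAR, which edits double-stranded RNA and was the target with the most counts, was at 564.7, 586.1, 577.4 and 569.2 CPM in control and at 506.1, 527.3, 514.3 and 524.0 CPM in knockdown. Its log2 fold change was -0.15 (SE 0.0179, edgeR adjusted p 0.000112), but it was 0.12 with an adjusted p of 0.000899 once the regional shift was removed, so the direction depends on that choice. The GTPase MX1 was not called, at 16 to 25 counts in control and 23 to 29 in knockdown (log2 fold change 0.29, SE 0.182), and MX2 had at most 8 counts. RSAD2 (viperin) had at most 2 counts in any library.

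The last targets held the largest fall and one of the largest rises. BST2 (tetherin), which holds budding viruses at the cell surface, had 87, 86, 76 and 80 counts in control and 6, 6, 6 and 7 in knockdown. It kept 7.56% of the control level (log2 change -3.71 with SE 0.106, edgeR adjusted p 1.49e-14). BST2 met the filter's minimum only through control and so had to differ to be tested. PARP14 (chromosome 3), an ADP-ribosyltransferase, had 72, 70, 61 and 69 counts in control and 907, 968, 711 and 866 in knockdown, 12.5-fold higher (log2 change 3.64 with SE 0.0537, edgeR adjusted p 7.08e-24). PARP9, its neighbour and a partner of the ubiquitin ligase DTX3L, was at 2.33, 2.22, 2.13 and 2.54 CPM in control and at 7.17, 6.96, 6.82 and 7.16 CPM in knockdown (log2 change 1.60 with SE 0.0560, edgeR adjusted p 1.48e-12). DTX3L, which shares 217 bp with PARP9 on the opposite strand, had a log2 fold change of 1.74.

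GBP2, a guanylate-binding protein, was at 3.89, 3.72, 3.56 and 3.70 CPM in control and at 11.4, 11.6, 11.4 and 13.03 CPM in knockdown (log2 change 1.67 with SE 0.0530, edgeR adjusted p 9.63e-15). SAMD9, which restricts poxviruses, was at 10.8, 7.89, 6.21 and 9.51 CPM in control and at 3.90, 3.85, 3.87 and 3.23 CPM in knockdown. SAMD9 fell by 1.21 on the log2 scale (SE 0.183, edgeR adjusted p 1.83e-06), and its control libraries were the more spread. Its neighbour SAMD9L had 0 to 4 counts in control and no read in knockdown, where 0 counts allow a level of at most 0.153 CPM given the depth of replicate 3. XAF1 had 0 to 2 counts in control and 7 to 15 in knockdown, a count ratio of 20.3 (95% counting interval 5.26 to 172.9, exact binomial). EPSTI1 had at most 2 counts in any library. In all, 4 of the 11 untested rows had no more than 3 counts in any library. Members given above by replicate were chosen mainly among calls whose groups did not overlap. Without overlap, an exact two-sided permutation of libraries must give p = 0.0286, the smallest that 4 against 4 allow. That value is therefore no further support for these members. For DDX58 and IFIT1, which edgeR called although their groups overlapped, the same permutation gave p = 0.0571.

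**Figure D3:**
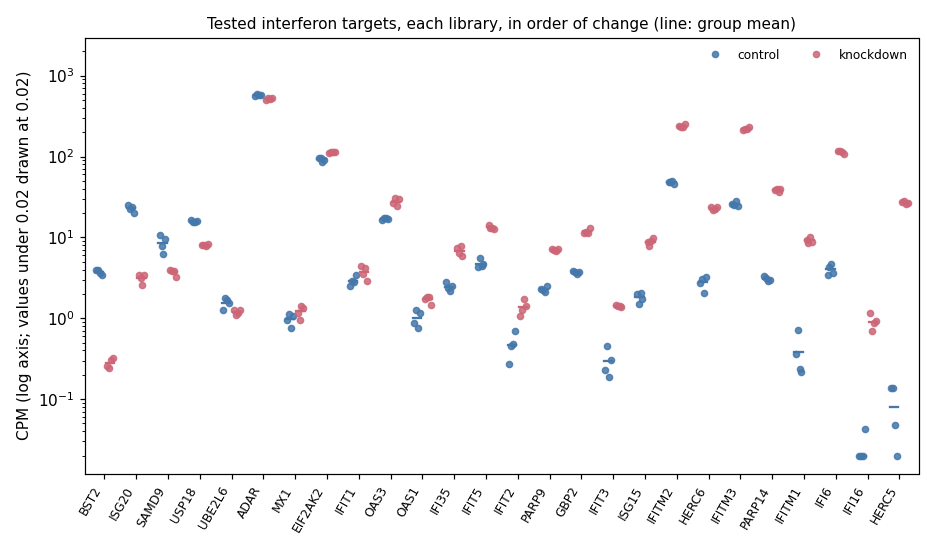
CPM (log axis, values under 0.02 drawn at 0.02) of the 26 tested targets in each library, ordered by change from BST2 to HERC5, with a line at each group mean. BST2, ISG20, SAMD9, USP18, ADAR and UBE2L6 are lower in all knockdown libraries than in any control. ADAR, EIF2AK2, IFITM2, IFITM3 and IFI6 stand above 100 CPM in knockdown.

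Position in the genome was not part of how members were chosen. Counting members less than 500 kb apart as 1 locus, 26 member symbols fell in 10 loci. At chromosome 11, 307631 to 615999 (GENCODE 29 on GRCh38), IFITM1, IFITM2 and IFITM3 rose while IRF7 in the same locus fell, and the 50 nearest tested protein-coding genes had a median log2 fold change of -0.58. At chromosome 4, 88378739 to 88506163, HERC5 and HERC6 both rose beside a neighbour median of 0.02. At chromosome 3, 122527924 to 122730840, PARP9 and PARP14 both rose beside a neighbour median of 0.20. The 4 IFIT genes on chromosome 10 were all higher, with log2 fold changes from 0.36 to 2.25 and a neighbour median of 0.09. In these loci IFITM1, HERC5, IFIT2 and IFIT3 met the filter's minimum only through knockdown and so had to differ to be tested.

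Other loci were less uniform. On chromosome 21, 33229901 to 33479348, IFNAR1 and IFNGR2 fell and IFNAR2 was not called, beside a neighbour median of -0.05. On chromosome 17, 42101404 to 42388568, STAT3 fell and DHX58 was not called. On chromosome 12, OAS1 and OAS3 rose and OAS2 was too low to test. With the neighbour median subtracted, 24 members rose and 15 fell in place of 23 and 17. Among called members whose direction held, 6 log2 values moved by over 1.5 times: JAK2 to -0.80, TYK2 to -0.31, STAT2 to -0.55, IRF3 to 0.28, STING1 to 0.33 and EIF2AK2 to 0.19.

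**Figure D4:**
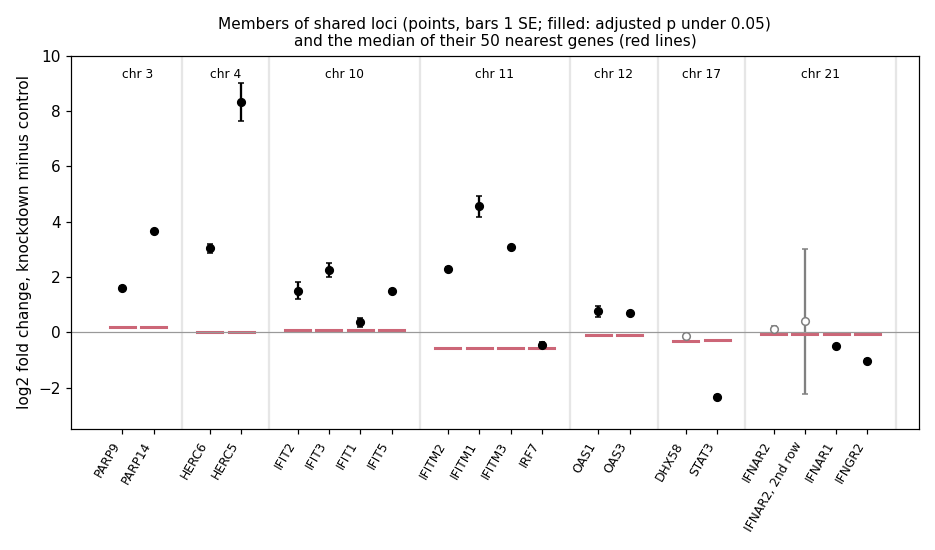
Log2 fold change (knockdown minus control, bars of 1 SE, filled for an adjusted p under 0.05) of tested members in shared loci, with the median of the 50 nearest tested protein-coding genes as red lines. The IFITM genes lie at 2.31 to 4.55 above a neighbour median of -0.58, and IRF7 lies near that median at -0.47.

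Further genes of the pathway were taken from lists written with the members known. The list of other signalling genes had 25 symbols, of which 20 were found and 17 tested; 8 rose (47.1%, against 39.4% of all genes), 5 fell (29.4%, against 37.7%) and 4 were not called, with a median log2 fold change of 0.17. IFNB1, IFNK, IFNL2, IFNL3 and AIM2 were not analysed here, and the interferon genes IFNE and IFNL1 had at most 3 counts in any library. IFNLR1, the chain specific to type III interferon receptors, rose from 5.28 CPM ± 0.454 to 17.3 CPM ± 1.12, while its partner IL10RB fell from 28.99 CPM ± 1.71 to 15.4 CPM ± 1.45 (n = 4 per group, SD). No control library held a count of the transcription factor IRF8 (0 in each), which averaged 0.718 CPM ± 0.188 (SD, n = 4) in knockdown. SOCS3, a feedback inhibitor of JAK signalling, had a log2 fold change of 1.06, and TICAM1, the adaptor of TLR3, of -0.89 and IRF5 of -0.80, each called by edgeR.

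The list of other targets held 36 symbols, of which 32 were tested; 14 rose (43.8%, against 39.4% of all genes), 16 fell (50%, against 37.7%) and 2 were not called, and the median log2 fold change was -0.12. No test compared this list with the members. The largest rises were in HELZ2 (0.967 CPM ± 0.212 to 30.6 CPM ± 1.49), LAMP3 (0.410 CPM ± 0.149 to 6.25 CPM ± 0.216) and the chemokine gene CCL5 (1.98 CPM ± 0.221 to 21.4 CPM ± 0.785). The largest falls were in TRIM34 (30.7 CPM ± 1.49 to 8.70 CPM ± 0.804), TDRD7 (11.98 CPM ± 1.29 to 3.73 CPM ± 0.302) and the large ubiquitin ligase gene RNF213 (572.0 CPM ± 15.6 to 188.9 CPM ± 12.3; SD, n = 4 each throughout). All 6 were called by edgeR with groups that did not overlap. LAMP3, like IRF8 above, reached the filter's minimum only through knockdown and so had to differ to be tested.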

How the data were processed

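RNA from SKBR3 cells was extracted with Trizol and sequenced as paired-end reads of 101 bp on an Illumina NextSeq 550, per the labels' protocols. The deposited table holds the authors' unnormalised read counts for each gene, with symbols. Their processing notes name hg38, FastQC, Salmon 1.9 and DESeq2 without roles. How reads were counted, with which annotation and whether by strand, is not given in the sources used here. Salmon estimates abundance per transcript, so counts of genes that share sequence may be divided estimates.

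Groups came from sample titles. With R 4.3.3, edgeR 4.0.16 kept 16430 genes (filterByExpr, 10 counts in 4 libraries, total 15), scaled by TMM and tested knockdown against control (glmQLFTest after a robust glmQLFit), and p-values were adjusted by Benjamini-Hochberg across those genes with 0.05 as threshold. CPM used TMM-scaled totals. Fitted log2 fold changes used a prior count of 0.125, and standard errors came from log2 CPM with 0.5 counts added. HERC5, IFI16, IFI27, XAF1, CGAS and OAS2 had 3 or fewer counts in every library of a group. For these the ratio of summed counts is given with an exact 95% binomial interval in place of a bound against 3 counts. These intervals and floors cover counting error only. Positions and exon lengths came from GENCODE 29 on GRCh38.

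Members, roles and lists were chosen with earlier results of these data known. Members named with values per library are the 4 largest called changes without overlap in each of 8 role groups, the highest member of each, and 2-fold calls against its group; of the 2 further lists, the 3 largest rises and falls. Alternatives were other scalings and filters, DESeq2 1.42.0, limma 3.58.1 (voom), a replicate block, an adjusted p of 0.01, removal of the median change of the 50 nearest genes, and leaving out each library. The test script was tested on simulated data. Figures used Python 3.11.15 and matplotlib 3.10.9.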

Additional observations from a re-analysis of the deposited data

Results flagged for a closer look

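For groups of 4 libraries, Dixon's ratio of a library's gap from its closest neighbour to the range was set against the 95% critical value. Chance passes about 1 in 20 groups, or 5.95 of the 119 examined, and 7 passed. IRF7 was low in knockdown replicate 1 (3.141 CPM against 4.173 to 4.272). IFIH1 was low in control replicate 3 (25.56 CPM against 29.74 to 30.17). IFI16 had its only control read in replicate 4 (0.04303 CPM against 0). In knockdown replicate 4, GBP2 was high (13.03 CPM against 11.39 to 11.62) and SAMD9 was low (3.234 CPM against 3.846 to 3.905). Among the further lists, SOCS3 was high in control replicate 2 (4.035 CPM against 3.476 to 3.557) and TRIM34 was high in knockdown replicate 2 (9.9 CPM against 8.225 to 8.341). These fell in 6 different libraries, and no cause was tested.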

How the results depend on the processing

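The counts of members that rose (23), fell (17) or changed at least 2-fold (24), and the count of all genes called (12675), stayed within 1.5 times under every alternative run. The median log2 fold change of members tested (0.298) moved to 0.05 with no filter on low counts, where more low genes were tested, to 0.126 with a mean of at least 50 counts and to 0.196 with the regional shift removed. Leaving out each library gave values from 0.182 (without control replicate 3) to 0.33.

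Over 59 named or tested genes and 1052 gene and setting pairs, 1026 kept their direction and side of the threshold. With the regional shift removed, log2 fold changes turned to 0.1633 for DDX58, 0.1958 for DHX58, 0.1644 for IRF2, 0.1137 for IRF7 and 0.1231 for ADAR. By construction this setting subtracts the neighbours' median. TBK1, not called, turned to 0.04664 with upper-quartile scaling, 0.06979 with library size only and 0.0007653 with a mean of at least 50 counts, and ran from -0.08487 to 0.02165 with each library left out, turning positive without control replicate 1 (0.01687), control replicate 4 (0.008161) or knockdown replicate 4. IRF2, not called, turned to 0.0008096 with library size only. The second IFNAR2 row (IFNAR2 ENSG00000249624.9) ran from -0.3242 (without knockdown replicate 4) to 1.194 and was -0.02025 without control replicate 2. IFIT1 lost its call in 9 settings and UBE2L6, IFNAR2 and TBK1 gained one in 1 setting each. The cause was not tested.

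Replicate numbers are shared by the groups, but no label says that they mark a pair, and correlations of deviations between same-numbered libraries ran from -0.0307 to 0.0563. With a replicate block 22 members rose and 17 fell, 24 changed at least 2-fold, the median log2 fold change of members tested was 0.299 and FOXA1 stayed at -5.60. Counts of about 10 or fewer in libraries of a group limit HERC5, IFI16, IFIT2, IFIT3 and IFITM1 (control), BST2 (knockdown) and the untested members. Scaling moved ADAR to -0.0656 and STAT2 to -0.147 with library size only, and ADAR to -0.0898 with upper-quartile scaling.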
